A study of Mus musculus with 64 samples.

Results

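Traf3 encodes an adaptor protein that binds receptors of the tumour necrosis factor receptor family, such as CD40 and the BAFF receptor. In resting B cells it holds TRAF2 and the ubiquitin ligases cIAP1 and cIAP2 (genes Birc2 and Birc3) next to the kinase NIK (gene Map3k14), so that NIK is degraded and the non-canonical NF-kB pathway stays off. Loss of TRAF3 lets NIK accumulate and prolongs the survival of B cells, and the gene is known as a tumour suppressor in B cell malignancies.

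The insertions described here are those between bases 111166370 and 111267155 of chromosome 12 (mm10), which is mouse Traf3 (gene ID 22031) on the plus strand. The gene was selected on these same data, by the number of its insertions in tumours, so its numbers in tumours and tails are a description, and no difference in them is tested. Of 385883 deposited lines, 92 lay in the gene, and they gave 91 of 299625 insertions. Traf3 is 1 of 39086 annotated genes.

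In the PB system 30 tumours and 12 tails were sampled, and in the SB system 11 tumours and 11 tails. The tumours were diffuse large B cell lymphomas of mice in which a transposase, PiggyBac (PB) or Sleeping Beauty (SB), moves copies of the ITP transposon array around the genome. Labels name the genotypes IMPB and IMSB. They also name the tissue of each tumour, and the mix differed between the systems. PB tumours included 9 labelled MES MASS, 6 MES LN and 6 SPLEEN. SB tumours included 3 labelled SPLEEN, 2 MES MASS, 2 MES LN and 1 THYMUS, which is SB tumour 8. Tissue was not part of any test. The transposase is a constitutive knock-in at Rosa26, and the mice, which carry Blm mutant alleles, are of a mixed background. Ages were not given in the sources used here. Tail DNA served as the control tissue, in which the transposons move but no tumour was sampled. PB inserts at TTAA and SB at TA, and each motif hit in a sample was taken as 1 insertion.

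The reads on the insertions of a sample numbered between 60551 and 5721832 in PB tumours (median 136578), between 71232 and 193314 in PB tails, between 56871 and 162837 in SB tumours (median 106996) and between 55502 and 369482 in SB tails (median 104091). A sample had 5230 ± 2526 insertions in PB tumours (SD, n = 30), 4010 ± 1926 in PB tails (SD, n = 12), 3983 ± 2225 in SB tumours (SD, n = 11) and 4617 ± 1495 in SB tails (SD, n = 11). PCR reads carry no molecular identifiers here, so they are not counts of cells.

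Traf3 carried an insertion in 18 of 30 PB tumours and in 8 of 11 SB tumours. It also carried 1 in 7 of 12 PB tails and in 4 of 11 SB tails. The number per PB tumour ran from 0 to 8 with a median of 1, and the mean was 1.60 ± 2.14 (SD, n = 30). The number per SB tumour ran from 0 to 13 with a median of 1, and the mean was 2.91 ± 4.09 (SD, n = 11). No tail had more than 1. The ranges of all 4 groups overlap at 0 and 1. With insertions of at least 10 reads alone the mean number was 0.60 in PB tumours, 0.167 in PB tails, 1.64 in SB tumours and 0.364 in SB tails. SB tails had a mean of 0.143 in the 7 with joined names, the form of all SB tumours, and 0.75 in the 4 with separated names, the 2 ways sample names are written in the labels.

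Per 10000 insertions of the sample, Traf3 received 2.77 ± 3.39 in PB tumours (SD, n = 30, lowest 0, median 1.71, highest 12.5) and 1.59 ± 1.62 in PB tails (SD, n = 12, lowest 0, median 1.48, highest 4.64). In SB tumours it received 7.79 ± 9.86 (SD, n = 11, lowest 0, median 4.14, highest 33.0) and in SB tails 0.956 ± 1.45 (SD, n = 11, lowest 0, median 0, highest 3.94). In order of mean level the groups were tumours of SB, tumours of PB, tails of PB and last the tails of SB, and each neighbouring pair of means lay closer together than the SD of the higher group. A few tumours held much of the total. PB tumour 11 had 8 of 48 insertions (16.7%), and SB tumour 11 had 13 of 32 (40.6%). Without SB tumour 11 the mean number per SB tumour was 1.90 ± 2.47 (SD, n = 10), and the mean per 10000 was 7.09 ± 10.1 (SD, n = 10).

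**Figure D1:**
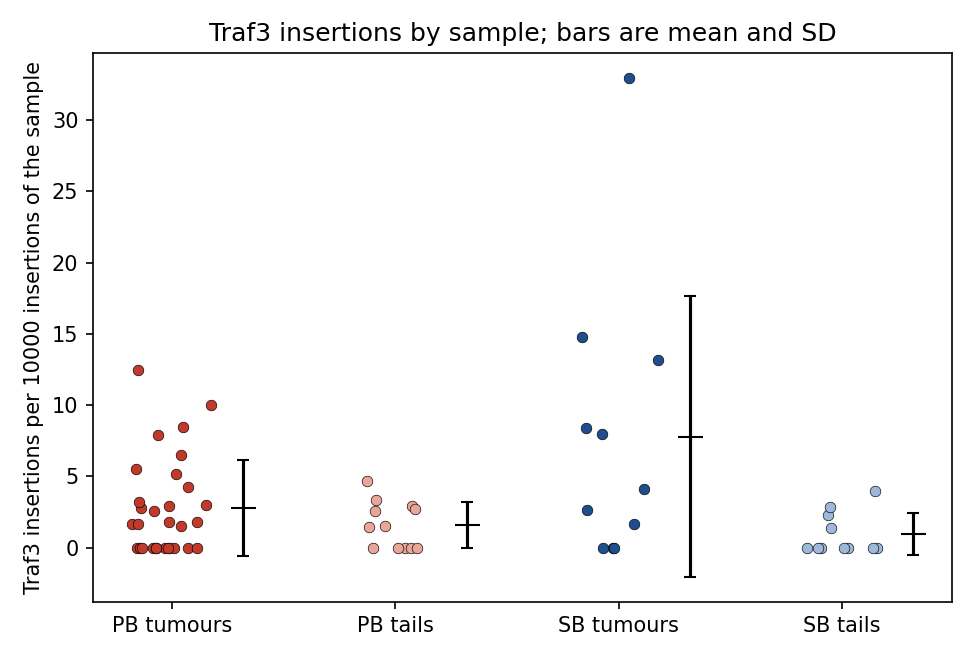
Traf3 insertions per 10000 insertions of the sample (y axis) for every sample of the 4 groups (x axis). Points are samples, spread sideways for legibility, and bars are mean and SD. SB tumour 4 stands highest at 33.0, and every group has samples at 0.

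From the share of motif sites of chromosome 12 that lie in Traf3 (544 of 687200 TTAA and 5300 of 7451165 TA), 6.08 insertions would fall in the gene in tumours and 1.86 in tails of PB, and 1.59 in tumours and 1.91 in tails of SB. The observed numbers were 48, 7, 32 and 4, which is 7.89, 3.76, 20.2 and 2.09 times those values in the same order. Tails, too, held more than the motif sites give. These ratios describe the gene and are not tested.

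Insertions lay along the gene, almost all in introns. The RefSeq transcript with the longest coding sequence has 12 exons, and its start codon begins at base 111237579 in exon 3, so 71.2 kb of the 100.8 kb of the gene come before it. Introns held 47 of 48 insertions in PB tumours, 31 of 32 in SB tumours and all 11 in tails, and they held 96.1% of the TTAA sites and 95.4% of the TA sites. Intron 1, of 53.2 kb, held 30 of 48 insertions in PB tumours and 20 of 32 in SB tumours (62.5% in each), with 56.4% of TTAA and 57.5% of TA sites, and in tails it held 1 of 7 in PB and 4 of 4 in SB. Intron 2 held 7 in PB tumours and 5 in SB tumours. The 2 insertions in an exon, 1 in PB tumour 20 and 1 in SB tumour 11, were both in exon 12.

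Insertions before the start codon made up 37 of 48 in PB tumours and 25 of 32 in SB tumours, and 4 of 7 in PB tails and 4 of 4 in SB tails. Averaged over the 18 PB tumours with an insertion, their share was 81.7% ± 30.2 (SD, n = 18), with a lowest value of 0, a median of 100 and a highest of 100, against 76.1% of the TTAA sites (p = 0.45 in a sign-flip permutation test over tumours, two-sided). Over the 8 SB tumours it was 79.6% ± 35.4 (SD, n = 8), with the same lowest, median and highest values, against 75.6% of the TA sites (p = 0.84, exact sign-flip permutation). The smallest p that 8 tumours allow is 0.0078. The test takes differences from the reference as symmetric about 0. Tumours with 1 insertion, 9 of 18 in PB and 3 of 8 in SB, allow only 0% or 100%, so the p-values are approximate. The share before the start codon was not distinguished from that of the motif sites in either system by this test. With insertions of at least 10 reads alone the share was 75% in PB and 73.3% in SB tumours. Joined names alone gave 74.6% in PB tumours. Each of these lay below the share of the motif sites. The first 3 kb of the gene, which were not tested, held 9 of 48 insertions in PB tumours (18.8%), in 6 tumours, with 3.86% of the TTAA sites, and 4 of 32 in SB tumours (12.5%), in 3 tumours, with 3.38% of the TA sites. Tails had 0 of 7 there in PB and 1 of 4 in SB. Of the 9 in PB tumours 5 lay at 1 TTAA, and of the 4 in SB tumours 2 lay 4 bp apart in SB tumour 4 with equal reads. All 4 in SB tumours lay between bases 111168836 and 111168954 on the plus strand, in sequence rich in TA. The 1 in an SB tail, at base 111168932 on the plus strand, lay in the same stretch. Whether they mark separate sites was not tested.

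**Figure D2:**
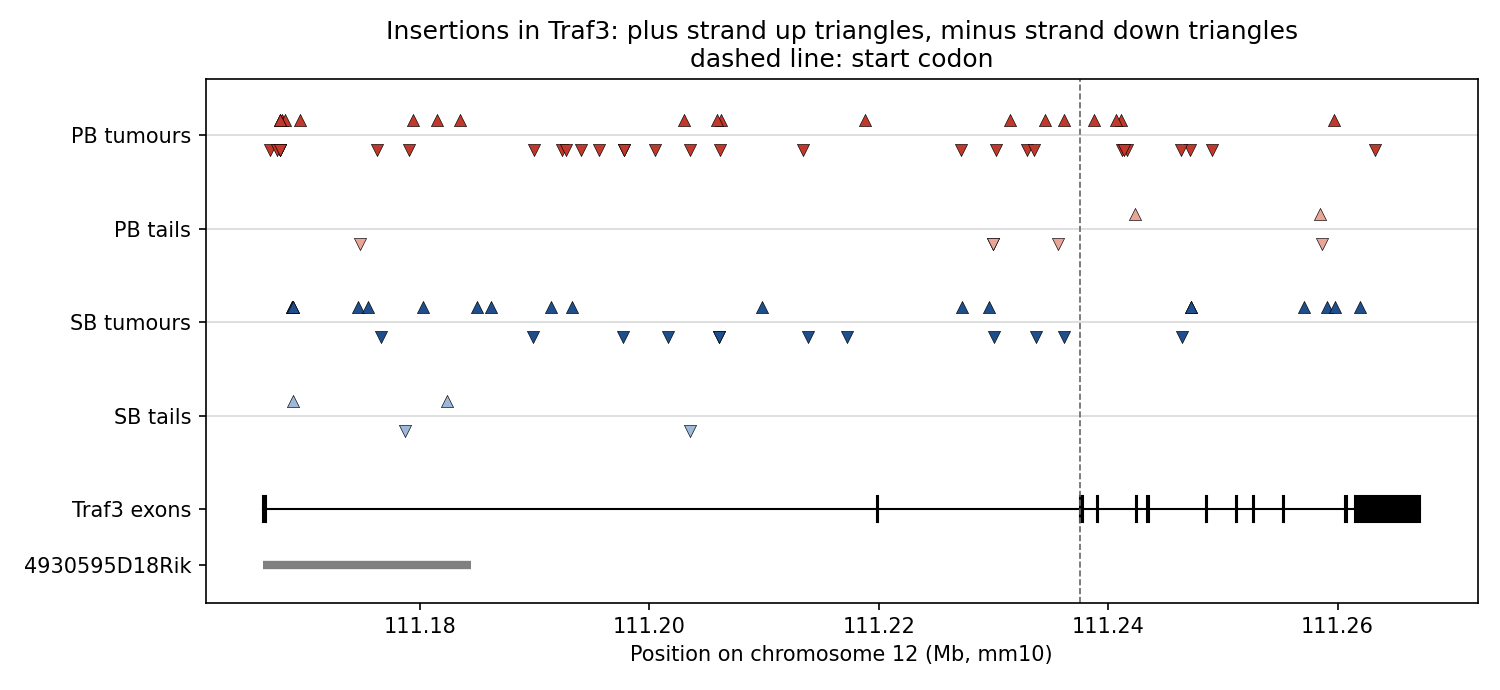
Position of the 91 insertions on chromosome 12 (x axis, Mb, mm10) by group, with triangles pointing up for the plus strand and down for the minus strand, above the exons of Traf3 and the part of 4930595D18Rik that overlaps it. The dashed line is the start codon, and 37 of 48 insertions of PB tumours and 25 of 32 of SB tumours lie to its left.

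Both strands were used. In PB tumours 19 insertions were on the plus strand, the strand of Traf3, and 29 on the minus strand. The plus share per tumour was 44.3% ± 41.4 (SD, n = 18), with a lowest value of 0, a median of 35.4 and a highest of 100, and it was not distinguished from 50% (p = 0.57, sign-flip permutation). It was 55.6% with insertions of at least 10 reads alone and 54.2% with separated names alone. In SB tumours 20 were on the plus strand and 12 on the minus strand, with a plus share per tumour of 68.3% ± 35.0 (SD, n = 8), between 0 and 100 with a median of 75 (p = 0.25, exact sign-flip permutation). Tails had 2 plus and 5 minus in PB and 2 of each in SB.

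The first 18.1 kb of Traf3 are shared with 4930595D18Rik, a long non-coding RNA gene on the minus strand, and the deposited table names that gene for 28 of the 92 lines and Traf3 for 64. The shared stretch held 15 of 48 insertions in PB tumours, 8 of 32 in SB tumours, 1 of 7 in PB tails and 3 of 4 in SB tails, with 18.6% of the TTAA and 20.2% of the TA sites. An insertion there lies in both genes, and the position does not tell them apart.

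Most motifs were hit once. Of 49 TTAA motifs hit in Traf3, 46 were hit in 1 sample, and of 36 TA motifs all were. Some TA motifs hit in different samples were close neighbours, however. They were those at bases 111168928 (SB tumour 2) and 111168932 (SB tail 9), both on the plus strand. A second such pair lay at bases 111206082 (SB tumour 6) and 111206086 (SB tumour 4), both on the minus strand. The TTAA at chr12:111167808-111167811 in intron 1 was hit in 5 PB tumours (8, 19, 23, 26 and 30), 2 on the plus and 3 on the minus strand, with between 5 and 36 reads. Over the genome 4.30% of TTAA motifs hit were hit in 2 or more samples, and 75 of 195142 in 5 or more. A second TTAA, at chr12:111197824-111197827 in intron 1, was hit in PB tumours 3 and 14, on the minus strand in both. Another, at chr12:111229998-111230001 in intron 2, was hit in PB tails 2 and 6, also on the minus strand in both. Whether the shared motifs mark separate insertions was not tested. The sequences of these repeatedly hit motifs, read on the plus strand of mm10 with 10 bases on each side and the TTAA in capitals, are the following.

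5 PB tumours, intron 1: catcctttacTTAAaggagaggaa

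PB tumours 3 and 14, intron 1: tgttttgtttTTAAgatttagtta

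PB tails 2 and 6, intron 2: ccactgggctTTAAtaaagggagt

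Reads were not used to choose the gene. In PB tumour 14 the insertion at chr12:111197824-111197827 had 6220 reads and was the 4th most covered of 3210 in the tumour, and another at chr12:111181540-111181543 had 5385 reads and was the 5th. Together the 4 Traf3 insertions of that tumour took 11.5% of its reads. In PB tumour 3 the TTAA at chr12:111197824-111197827 had 4 of the 5721832 reads on the insertions of that tumour. Among SB tumours, tumour 8 had an insertion of 376 reads (15th of 2504) and tumour 11 had insertions of 360 (12th of 8786) and 263 reads (22nd). In all, 30 of 48 insertions in PB tumours and 14 of 32 in SB tumours had fewer than 10 reads.

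To set samples of unequal depth side by side, each insertion was ranked by reads within its sample. Traf3 insertions of PB tumours had a median percentile of 66.6 (lowest 5.59, highest 99.9), with 31 of 48 above the median of their sample. Those of SB tumours had a median of 46.1 (lowest 3.15, highest 99.9), with 15 of 32 above it. All 7 insertions of PB tails were below the median of their sample, between 2.76 and 35.9, and those of the 4 SB tails stood at 32.0, 37.7, 75.0 and 76.9. Of these SB tails, 3 have separated names and between 267354 and 319389 reads, more than any SB tumour. Reads themselves were alike in PB, with a median of 6 per Traf3 insertion in tumours and 7 in tails. An insertion of 5 reads stood at 67.6 in PB tumour 11 and at 13.2 in PB tail 1.

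**Figure D3:**
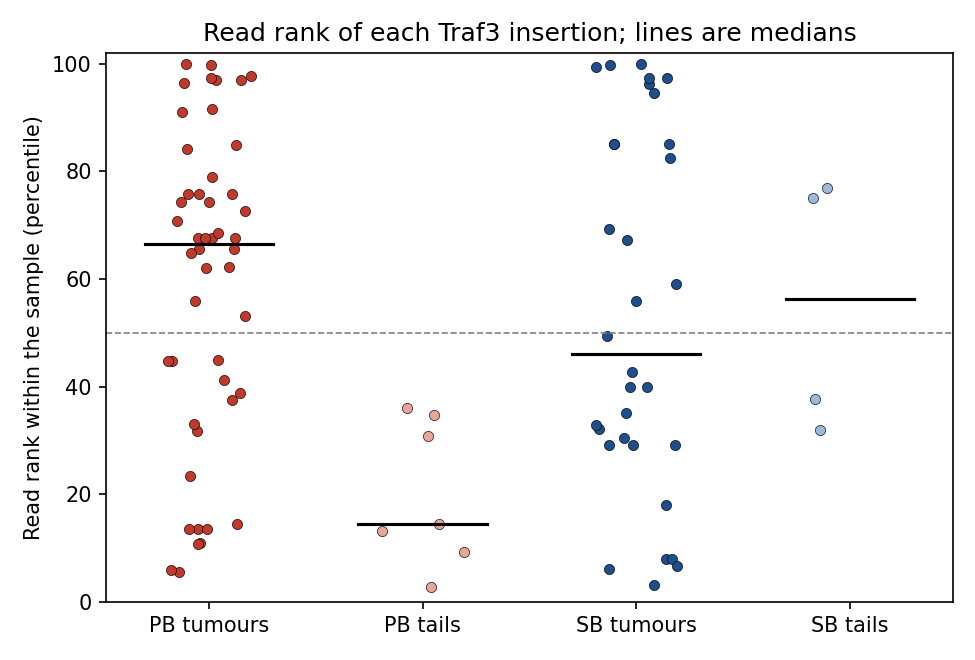
Read rank of each Traf3 insertion within its sample as a percentile (y axis) in the 4 groups (x axis). Lines are medians and the dashed line is the middle rank. The 7 insertions of PB tails lie between 2.76 and 35.9, and those of PB tumours between 5.59 and 99.9.

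The ranks were turned into normal scores, on which 0 is the middle of a sample, and averaged per sample and gene. The score of Traf3 was 0.38 (SE 0.21, n = 18) in PB tumours and did not pass in a limma fit across 4351 genes (adjusted p = 0.83, Benjamini-Hochberg), where 8 genes, 0.184%, were above 0 and 0 below, 0%. It was 0.17 (SE 0.31, n = 8) in SB tumours (limma, adjusted p = 0.97), where 1 of 515 genes, 0.194%, was above 0 and 0 below, 0%. Between PB tumours and PB tails the score differed by 1.33 (SE 0.38, with 0.38 in 18 tumours and -0.95 in 7 tails), the 21st highest difference of 2249 genes. Its unadjusted p was 0.00057 and its adjusted p was 0.31 (limma), so it did not pass. Of those genes 0 were higher in tumours at this threshold, 0%, 1 was lower, 0.0445%, and 137 had an unadjusted p under 0.05 in either direction. With the log2 share of reads the adjusted p was 0.051. With a sample's highest insertion in place of the mean the difference was 1.85 and passed (limma, adjusted p = 0.011), as 3 of the 2249 genes did (0.133%), and the score of PB tumours was 0.90 and passed too (limma, adjusted p = 0.0035), with 211 of the 4351 genes (4.85%). The highest of several insertions grows with their number, by which the gene was chosen, and each PB tail hit had 1. This alternative, though planned, therefore does not replace the mean, the main measure. In SB the score was 0.17 in 8 tumours and 0.16 in 4 tails, a difference of 0.01 (SE 0.52, limma, adjusted p = 0.999) over 482 genes, of which 0% were higher and 0.207% lower in tumours at an adjusted p of 0.05 and 24 had an unadjusted p under 0.05. That SB difference was 0.65 with insertions of at least 10 reads alone (limma, adjusted p = 0.94). With a sample's highest insertion it was 0.64 (limma, adjusted p = 0.96). Name form differs between these groups, as all the tumours have joined names and 3 of the 4 tails separated names.

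PB and SB tumours were compared on the 3 measures the choice of the gene did not use. The plus share differed by -24.0 percentage points (PB minus SB, exact permutation test, p = 0.17, adjusted p = 0.51), the share before the start codon by 2.09 points (exact permutation test, p = 0.90, adjusted p = 0.90) and the score by 0.21 (exact permutation test, p = 0.59, adjusted p = 0.88), with 18 and 8 tumours in each. The score difference was -0.045 with insertions of at least 10 reads alone, and the share before the start codon differed by -4.99 points with joined names. None of these differences exceeded the spread between tumours.

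The number of Traf3 insertions in a tumour went with the total found in it. Over 30 PB tumours r was 0.53 and Spearman's rho 0.41, and over 11 SB tumours r was 0.56 and rho 0.35. These numbers chose the gene, so the values are a description with no test. Other genes went with the total as well: the median r was 0.38 over 2181 genes hit in at least 10 PB tumours, of which 448 were above Traf3, and 0.43 over 1281 genes hit in at least 4 SB tumours, of which 423 were above it. Without the 2 tumours farthest from the median total r was 0.43 in PB and -0.19 in SB, so the SB value rests on those tumours. In PB r was 0.53 within 22 tumours with joined names and 0.55 within 8 with separated names, and 0.18 with insertions of at least 10 reads alone.

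The flanks of Traf3 were hit less densely in tumours. Per 100 motif sites, PB tumours had 1.97 insertions in the 100 kb before the gene, 8.82 in the gene and 1.63 in the 100 kb after it, and SB tumours had 0.0796, 0.604 and 0.0261. In PB tails the values were 0.394, 1.29 and 0.815, and in SB tails 0.0199, 0.0755 and 0.0783. Upstream, Rcor1, which encodes a corepressor of REST, had 15 insertions in 11 PB tumours and 4 in 3 SB tumours, with 3 in PB tails and 2 in SB tails. Downstream, Cdc42bpb, a kinase gene, had 5 in 3 PB tumours and 0 in SB tumours, with 3 in PB tails and 2 in SB tails. Amn had 0 in tumours of both systems, Gm51960 had 0 in PB and 1 in SB tumours, and A230087F16Rik had 1 in PB and 0 in SB tumours.

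Other genes of the NF-kB pathway were taken from a list of 43. In PB 35 of them had an insertion and 12 had the 10 insertions over the samples that the test required. None of the 12 differed between tumours and tails in edgeR's quasi-likelihood test after Benjamini-Hochberg adjustment, where 2.08% of 3695 genes were higher in tumours and 2.3% lower. Of the 12, 2 had an unadjusted p under 0.05, 1 higher and 1 lower in tumours, where 739 of the 3695 genes had one, and DESeq2 called 0. The 12 had a median log2 fold change of 0.77, against 0.19 over all genes tested, which met the same minimum. A gene meets it more easily through the tumours, which outnumber the tails. The list was also chosen with earlier results of these data known. The 2 medians are therefore a description, and their difference was not tested. In SB 27 had an insertion and 3 were tested, and edgeR called 1 higher, Birc3, which rests on 1 tumour as described below, where 0.589% of 1188 genes were higher and 0.168% lower. DESeq2 called 0. The other 2, Malt1 and Nfkb1, had an unadjusted p under 0.05, as had 104 of the 1188 genes, and did not pass.

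Among receptors, ligands and kinases no member reached the 5 most hit genes of PB. Of transcription factors, Rel, which encodes c-Rel, had 38 insertions in 15 PB tumours and 2 in 2 tails, with a log2 fold change of 1.99 (SE 0.66, edgeR, adjusted p = 0.056), and 6 insertions in 2 SB tumours. Nfkb1, which encodes p105 and p50, had 27 in 19 PB tumours and 8 in 6 tails (log2 fold change 0.06, SE 0.55, edgeR, adjusted p = 0.96), and in SB 8 in 5 tumours and 2 in 2 tails (1.63, SE 0.75, edgeR, adjusted p = 0.47). Malt1, which encodes a paracaspase, had 39 in 19 PB tumours and 6 in 6 tails (0.88, SE 0.55, edgeR, adjusted p = 0.39), and in SB 17 in 7 tumours and 4 in 4 tails (1.87, SE 0.65, edgeR, adjusted p = 0.18). Nfkb1 and Malt1 passed in neither system, and Rel was not tested in SB.

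Birc3, whose product cIAP2 acts with TRAF3 on NIK, had 19 insertions in 15 PB tumours and 2 in 2 tails (log2 fold change 1.13, SE 0.67, edgeR, adjusted p = 0.37). In SB it had 17 insertions in tumours, 16 of them in SB tumour 8, and 0 in tails. It passed in edgeR (log2 fold change 3.99, SE 0.81, adjusted p = 0.00018, and between 3.78 and 4.04 in the edgeR alternatives that keep the tumour, all past the threshold). Without SB tumour 8 it had too few insertions to be tested, and DESeq2 gave it a log2 fold change of 0.68 (adjusted p = 0.99). The call therefore rests on 1 tumour and is not taken as a difference between SB tumours and tails. Among inhibitors, N4bp1 had 19 insertions in 13 PB tumours and 3 in 3 tails, and Cyld, a deubiquitinase, had 4 in 3 SB tumours and 4 in 3 SB tails. Chuk, the kinase IKK alpha, had 3 insertions in SB tumours and 3 in SB tails.

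Over the 30 PB tumours, the genes whose insertions per 10000 ran most like those of Traf3, among 2181 genes hit in at least 10 of them, were Zranb3 (Spearman's rho 0.58), Akirin2 (0.57), Gas2 (0.56), Marchf1 (0.55) and Gm1976 (0.54), where the median gene had 0.04. Over the 11 SB tumours, among 1281 genes hit in at least 4, they were Fer (0.85), Hs3st5 (0.85), Fmn1 (0.73), Col5a2 (0.72) and Dcun1d5 (0.71), where the median was -0.05. The genes share the depth and the total of each tumour, and the values are descriptions with no test.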

How the data were processed

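Transposon junctions of 64 samples were amplified by splinkerette PCR and sequenced (QiSeq). The authors deposited raw read counts per position, strand and sample on mm10, not normalized; the aligner, insertion caller and read filter are not given in the sources used here. A further per-sample column (1) was not used. Positions were moved to the nearest TTAA or TA within 5 bp (1 Traf3 line had none and was dropped); the sex chromosomes and the donor chromosome, 14, were left out. Genes were those of RefSeq for GRCm38. Read ranks were fitted with limma 3.58.1 over genes hit in at least 6 tumours (and 3 tails), and insertions per gene with edgeR 4.0.16, with DESeq2 1.42.0 as an alternative, in R 4.3.3. Sign-flip and permutation tests were two-sided (exact where a group had fewer than 10 tumours, otherwise 100000 resamples; Python 3.11.15). The fits were tested on simulated data. Each sample title carries an animal code of its own, so samples were taken as separate mice. The gene, the NF-kB list and the rules for named genes (neighbours within 100 kb, the 5 most alike, list members past 0.05 or among the 5 most hit) were chosen with earlier results of these data known. The alternatives covered read minimum, position, name form, measure, filter, tool and single samples.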

Additional observations from a re-analysis of the deposited data

Results flagged for a closer look

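For the groups of 4 to 10 samples with an insertion in Traf3, the gap between the most extreme sample and its neighbour was compared with Dixon's 95% limit, in 18 combinations of group and measure, and 4 were past it. This marks samples to look at and is no test of the gene. Some of the 18 could not pass, because all their samples had the same value. They were the number of Traf3 insertions in PB tails and in SB tails, and the share before the start codon in SB tails. Chance passes the limit in about 1 in 20 groups of continuous values, which numbers and shares of few insertions are not. SB tumour 4 had 33.0 Traf3 insertions per 10000, the next SB tumour 14.8. This measure rests on the numbers that chose the gene, so its gap is a description alone. SB tumour 11 had 0.804% of its reads on Traf3, the next 0.267%. SB tumour 7 had 0% of its insertions before the start codon (its 1 insertion, which allows only 0% or 100%), the next 61.5%. PB tail 3 had 0.0184% of its reads on Traf3, the next 0.00785%. Their causes were not tested.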

How the results depend on the processing

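No paired analysis was run, because the replicate numbers follow accession order and pair no samples. Some tumours and tails share the first part of their titles, whose meaning the labels do not give. A block on it was not fitted. Beside the settings that leave out 1 sample, 72 values kept their direction and side of the threshold or, with no test, lay within 1 SD of the main value (a count of genes, within 1.5 times). With insertions of at least 10 reads the plus share of PB tumours was 55.6%, the share before the start codon 75% in PB and 73.3% in SB tumours, the PB minus SB score -0.045, and r with the total 0.18 in PB and -0.15 in SB tumours. With joined names the share before the start codon was 74.6% in PB tumours and the PB minus SB difference -4.99 points; with separated names the PB plus share was 54.2%. Without the 2 tumours farthest from the median total r was -0.19 in SB, an alternative added after the data were seen. With the log2 share of reads SB tumours minus tails was -0.060. None of these passed a threshold, and the causes were not tested. With a sample's highest insertion in place of the mean, the PB score was 0.90 (limma, adjusted p = 0.0035) and PB tumours minus tails 1.85 (limma, adjusted p = 0.011). The highest of several lies above their mean by construction: over all genes the median score was then 0.21 in place of 0.02, 211 of 4351 genes (4.85%) were above 0 in place of 8, and 3 of 2249 (0.133%) were higher in tumours than tails in place of 0. For PB tumours minus tails the median over all genes was 0.063 in place of 0.017, and Traf3 had 1.85 in place of 1.33.

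In edgeR's comparison of tumours with tails 162 genes passed in PB, and 71 with DESeq2 and 76 with no minimum; 9 passed in SB, 2 with DESeq2 and 10 without SB tumour 8 (added). Birc3 in SB was 0.68 with DESeq2. Leaving out 1 sample at a time, tails being added later, the score ran from 0.29 to 0.47 in PB and from -0.12 to 0.36 in SB tumours, tumours minus tails from 1.17 to 1.43 in PB and from -0.27 to 0.20 in SB, the share before the start codon from 80.6% to 86.5% in PB and from 76.6% to 90.9% in SB, and the plus share from 41.0% to 46.9% in PB and from 63.7% to 78.0% in SB. Joining positions within 5 bp and leaving out the stretch shared with 4930595D18Rik, both added later, changed no direction or call among the results they were run on. Separated names could not be run for SB tumours. With 8 SB tumours hit, and many insertions at 2 to 9 reads, small differences may have been missed.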

Other observations

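Some SB insertions lay 4 bp apart on the same strand of 1 sample with the same number of reads. In Traf3 there were 2 such pairs, in SB tumour 4 with 42 reads each and in SB tumour 11 with 29 each. Over the genome, 18 pairs of SB tumours and 4 of SB tails lay within 5 bp on 1 strand, and all 22 had equal reads, so these pairs may not be separate insertions. PB tumours had 1 such pair, also with equal reads, and PB tails had 0. Joined, SB tumours had 2.73 Traf3 insertions per sample in place of 2.91.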
